A study of Homo sapiens with 9 samples.

Results

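Wnt ligands outside a cell bind a Frizzled receptor together with the coreceptor LRP5 or LRP6, and the signal runs from there to beta-catenin, the product of CTNNB1. In the absence of a ligand, a destruction complex built on the scaffolds AXIN1, AXIN2 and APC holds beta-catenin so that the kinase GSK3B can phosphorylate it, and the phosphorylated protein is degraded. When the complex is silenced, beta-catenin enters the nucleus and joins TCF7L2 or LEF1 on the DNA, where genes such as CCND1, which encodes cyclin D1, are transcribed. Much of this control acts on the beta-catenin protein, which an mRNA array does not measure. The 10 genes named here were followed as a set. The genes were chosen with earlier results of these data known. Every probe that the platform annotation assigns to one of these symbols was then taken, whatever its values. This gave 19 probes of the 47231 on the array. Of these, 13 probes were bright enough to enter the test, among 22467 probes in all, and they stood for 9 of the 10 genes.

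The samples were cultures of MDA-MB-231, a human breast adenocarcinoma line that lacks the estrogen receptor, kept in DMEM with serum and profiled on 1-colour Illumina expression BeadChips. In 1 group the cells received 200 pmol of an siRNA against wild-type MTDH for 24 h, called the WT knockdown here, and in another the same amount of an siRNA against a splice isoform of MTDH for 24 h, called the isoform knockdown. The reference group is labelled control, and the design text describes it as untreated; cells given a non-targeting siRNA were not analysed here, so transfection itself and less MTDH cannot be told apart. MTDH encodes metadherin, a protein studied for its part in metastasis, and the study set the 2 knockdowns side by side with the control cells. Each group was labelled with 3 replicates, but the values of control replicate 2 were the average of those of controls 1 and 3 at all 47231 probes. The comparisons below therefore rest on 2 control arrays, 3 WT knockdown arrays and 3 isoform knockdown arrays. The knockdown signals had been deposited beside probe IDs of another row order and were matched back to their probes through the authors' log2 table. The labels do not say whether replicates were separate cultures, so the spread behind the p-values is that of these arrays alone and may be technical.

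Levels are normalized log2 signals, so that a difference of 1 is a doubling, and changes are differences of group means ± the standard error (SE) from limma, fitted over all 22467 probes with Benjamini-Hochberg adjusted p-values and a threshold of 0.05. A probe was called detected on an array where its deposited detection p-value was under 0.05, and 20295 to 21761 probes met this on each array. All 6 genes taken as markers of the line (VIM, CD44, EGFR, CAV1, MSN and LAMB3) were detected on all 8 arrays, whereas of 6 markers of luminal or epithelial cells ESR1, PGR and CDH1 were detected on 0 of 8 and EPCAM, KRT18 and GATA3 on all 8. EPCAM fell by 0.65 ± 0.11 under WT knockdown and by 0.58 ± 0.11 under isoform knockdown (adjusted p = 0.000937 and 0.003, limma), and the calls of KRT18 and GATA3 missed the threshold. Of the markers of other cells, PTPRC and PECAM1 were each detected on 1 array, CD3E, CDH5 and VWF on none, the fibroblast genes DCN and LUM each on 5 arrays and PDGFRB on 8. PDGFRB fell by 1.32 ± 0.12 log2 units under WT knockdown (adjusted p = 2.72e-05, limma). DCN and LUM, on 0 control arrays, had higher means in both knockdowns than in control, with LUM at least 1.26-fold higher under isoform knockdown. Both entered the test only through knockdown arrays, so a rise was built into their tests and no p-value is given. The part of such cells in the results was not tested.

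MTDH mRNA was lower in both knockdowns. Its probe read 10.71 and 10.69 in the controls, 9.59, 9.79 and 9.90 under WT knockdown and 9.87, 9.75 and 9.68 under isoform knockdown. MTDH fell by 0.94 ± 0.11 under WT knockdown (adjusted p = 0.000123, limma) and by 0.93 ± 0.11 under isoform knockdown (adjusted p = 0.000285, limma), and the probe gave no difference between the 2 knockdowns beyond its error (0.00 ± 0.10, limma adjusted p = 0.977). Which MTDH transcripts this probe reads is not given in the files, so it does not check the isoform label. Interferon-induced genes moved in the same arrays: IFIT1, IFIT2 and IFIT3 rose by 3.09 ± 0.08, 4.49 ± 0.12 and 3.66 ± 0.09 under WT knockdown and by 2.38 ± 0.08, 3.01 ± 0.12 and 2.86 ± 0.09 under isoform knockdown, with limma adjusted p-values of at most 9.59e-07. Each of the 3 was lower under isoform knockdown than under WT knockdown, with a difference of -0.71 ± 0.08 for IFIT1, -1.48 ± 0.10 for IFIT2 and -0.80 ± 0.08 for IFIT3. The part of this response in the Wnt genes' changes was not tested.

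In the WT knockdown, 10 of the 13 core probes passed the test, 8 of them lower and 2 higher, against a background of 51.5% of all probes called (27.0% lower and 24.5% higher). The probes that were lower belonged to LRP5, LRP6, CTNNB1, TCF7L2, LEF1 and CCND1, and the probes that were higher were the 2 of AXIN1, of which the brighter turned to -0.04 with median scaling. In the isoform knockdown, 6 probes were lower and 0 higher, against 40.1% of all probes called (21.0% lower and 19.1% higher); they belonged to GSK3B, CTNNB1, TCF7L2, LEF1 and CCND1. The median change over the 13 core probes was -0.45 under WT knockdown and -0.37 under isoform knockdown, where that of all probes was -0.01 and -0.00. Between the 2 knockdowns 7 probes differed, against 32.9% of all probes (17.3% higher and 15.6% lower): both LRP5 probes and TCF7L2 were higher under isoform knockdown, and both AXIN1 probes, AXIN2 and GSK3B were lower. Both knockdowns were set against the same 2 controls, so their changes share that error. With either control left out, which leaves 1 control array, fewer core probes were called in both knockdowns, and so were fewer of all probes. In bulk RNA, fewer cells of a kind and less RNA per cell cannot be told apart.

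**Figure D1:**
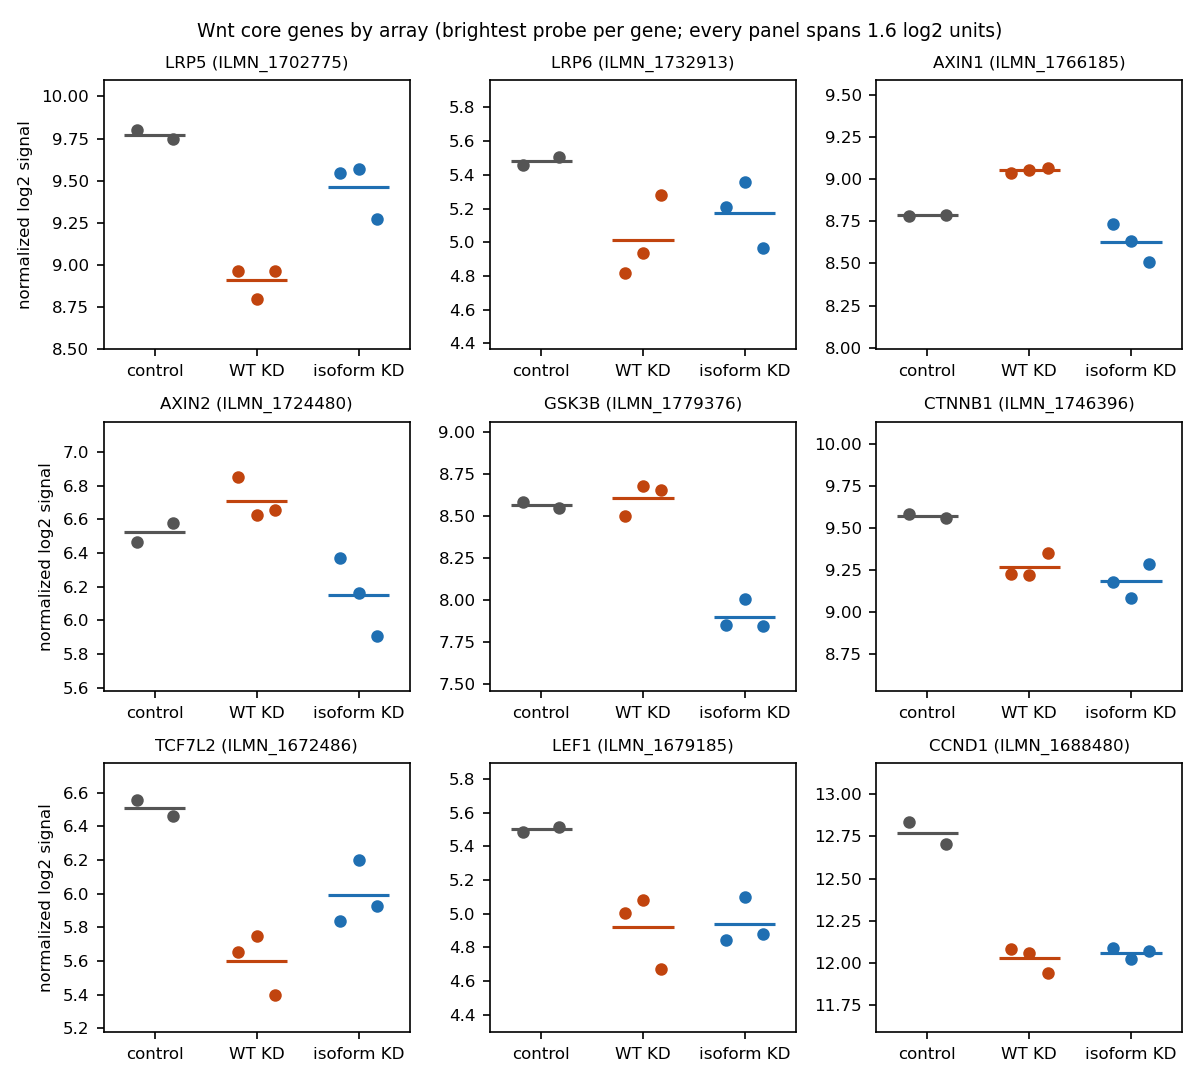
Normalized log2 signal (y axis) of the brightest probe of each of the 9 measured core genes in the control, WT knockdown (WT KD) and isoform knockdown (isoform KD) arrays; each point is 1 array, each bar a group mean, and every panel spans the same number of log2 units. CCND1 lies between 11.94 and 12.09 in all 6 knockdown arrays and at 12.83 and 12.70 in the controls, while GSK3B is low under isoform knockdown and LRP5 is lowest under WT knockdown.

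The promoters of 3 core genes are shown. CTNNB1 fell in both knockdowns, and GSK3B was lower under isoform knockdown than in either other group. TCF7L2 holds the single match to a TCF/LEF motif among the core windows searched. The windows run from 250 bases before to 50 after a gene start in the RefSeq annotation of GRCh38.p14, which held 10 such windows for 7 of the core symbols. No window was held for CCND1, AXIN2 and LRP6, so those genes were not searched. The CTNNB1 window is chr3:41199255-41199554 on the plus strand, the GSK3B window is chr3:120094398-120094697 on the minus strand and the TCF7L2 window, 1 of several starts of that gene, is chr10:113126383-113126682 on the plus strand. All are written 5′ to 3′ in the gene's direction, and capitals mark the matched motif.
CTNNB1: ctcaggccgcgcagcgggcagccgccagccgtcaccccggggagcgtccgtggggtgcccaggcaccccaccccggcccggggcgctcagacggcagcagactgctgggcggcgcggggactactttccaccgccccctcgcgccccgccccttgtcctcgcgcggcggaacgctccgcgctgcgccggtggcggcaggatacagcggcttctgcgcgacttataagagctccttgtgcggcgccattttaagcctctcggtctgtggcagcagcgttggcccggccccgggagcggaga
GSK3B: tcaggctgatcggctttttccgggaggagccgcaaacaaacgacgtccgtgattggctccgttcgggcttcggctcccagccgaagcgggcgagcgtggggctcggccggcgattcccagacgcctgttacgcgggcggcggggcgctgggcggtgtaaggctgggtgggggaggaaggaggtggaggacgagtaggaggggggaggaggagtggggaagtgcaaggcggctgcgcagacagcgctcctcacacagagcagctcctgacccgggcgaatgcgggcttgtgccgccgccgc
TCF7L2: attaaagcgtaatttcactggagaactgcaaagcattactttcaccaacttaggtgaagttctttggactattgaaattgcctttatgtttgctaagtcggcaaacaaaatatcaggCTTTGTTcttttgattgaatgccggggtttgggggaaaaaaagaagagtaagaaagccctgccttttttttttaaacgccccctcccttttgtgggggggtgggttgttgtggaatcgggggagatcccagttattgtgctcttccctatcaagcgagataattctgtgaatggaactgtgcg
The TCF/LEF motif was searched on both strands as CTTTG followed by AA, AT, TA or TT. Of 35116 promoter windows in the table, 13.8% held it, and of the 10 core windows 1 did, with CTTTGTT in the TCF7L2 window at position -133 from the gene start. A match describes the letters of the window and does not show that a factor binds there.

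The coreceptors LRP5 and LRP6 carry the Wnt signal across the plasma membrane. The brighter LRP5 probe, ILMN_1702775, read 9.80 and 9.75 in the controls, 8.96, 8.79 and 8.96 under WT knockdown, and 9.54, 9.57 and 9.27 under isoform knockdown. The 3 groups did not overlap, and the isoform knockdown lay between the others. LRP5 fell by 0.87 ± 0.11 under WT knockdown, to 54.8% of the control level (adjusted p = 0.000218, limma), and differed by -0.31 ± 0.11 under isoform knockdown, which missed the threshold (adjusted p = 0.0544, limma) but passed it under 6 of the 16 alternative settings. The direct comparison put LRP5 0.55 ± 0.10 higher under isoform knockdown than under WT knockdown (adjusted p = 0.00302, limma).

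The dimmer LRP5 probe, ILMN_2075892, gave the same order of group means. It read 6.66 and 6.13 in the controls, 5.52, 5.63 and 5.48 under WT knockdown and 6.35, 6.23 and 6.19 under isoform knockdown, so that the isoform arrays lay within the range of the controls. This probe fell by 0.85 ± 0.15 under WT knockdown (adjusted p = 0.00106, limma). The isoform knockdown differed from control by -0.14 ± 0.15 (adjusted p = 0.492, limma), a value that was -0.40 and passed without control 3 (adjusted p = 0.0477) and 0.13 without control 1 (adjusted p = 0.476). It differed from the WT knockdown by 0.71 ± 0.13 (adjusted p = 0.00302, limma). The lower LRP5 level under WT knockdown and the difference between the knockdowns passed the threshold with both probes under all 16 alternative settings.

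LRP6 was dimmer, with signals of 5.46 and 5.51 in the controls, 4.82, 4.94 and 5.28 under WT knockdown and 5.21, 5.36 and 4.96 under isoform knockdown, and it was not detected on 1 WT knockdown array. The controls lay above all knockdown arrays, and the knockdowns overlapped. LRP6 fell by 0.47 ± 0.15 under WT knockdown (adjusted p = 0.0291, limma), a call that was lost under 6 of 15 alternatives, among them leaving out either control (adjusted p up to 0.123). In the isoform knockdown the difference from control was -0.31 ± 0.15 (adjusted p = 0.144, limma), and from the WT knockdown 0.16 ± 0.14 (adjusted p = 0.412, limma).

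Of the tested members of the destruction complex, AXIN1 passed against control under WT knockdown and GSK3B under isoform knockdown, and all 4 of their probes, AXIN2's included, were lower under isoform knockdown than under WT knockdown. AXIN1, the scaffold whose amount can limit the complex, gave its highest quantile-normalized signals under WT knockdown, though with median scaling 1 of its 2 probes was no higher there than in control. Its bright probe, ILMN_1766185, read 8.78 and 8.79 in the controls, 9.03, 9.06 and 9.07 under WT knockdown and 8.74, 8.64 and 8.51 under isoform knockdown, without overlap between groups. The WT knockdown was 0.27 ± 0.09 above control (adjusted p = 0.0377, limma), but this rise was -0.04 when arrays were scaled to a common median in place of quantiles, and the call was lost under 8 of 16 alternatives. The isoform knockdown differed from control by -0.16 ± 0.09 (adjusted p = 0.212, limma) and lay below the WT knockdown by -0.43 ± 0.08 (adjusted p = 0.00429, limma; 0.110 with median scaling).

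The dim AXIN1 probe, ILMN_1692967, read 5.23 and 4.68 in the controls, of which 1 was detected, then 5.50, 5.59 and 5.65 under WT knockdown and 5.01, 4.92 and 5.21 under isoform knockdown. The 2 controls stood far apart, and the isoform arrays fell between them. The probe was 0.63 ± 0.16 higher under WT knockdown than in control (adjusted p = 0.00819, limma), which became 0.35 without control 3 (adjusted p = 0.0835). It was 0.09 ± 0.16 above control under isoform knockdown (adjusted p = 0.681, limma), and the isoform knockdown lay below the WT knockdown by -0.54 ± 0.14 (adjusted p = 0.0167, limma; 0.0598 at most with 1 knockdown array left out).

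AXIN2 is both a scaffold of the complex and a gene that the pathway itself switches on, which makes its mRNA a common readout of the pathway. Its probe read 6.47 and 6.58 in the controls, 6.85, 6.62 and 6.66 under WT knockdown and 6.37, 6.16 and 5.91 under isoform knockdown. The groups did not overlap, with the WT knockdown above and the isoform knockdown below control. Neither difference from control passed: it was 0.19 ± 0.14 under WT knockdown (adjusted p = 0.289, limma; -0.01 with median scaling) and -0.37 ± 0.14 under isoform knockdown (adjusted p = 0.0575, limma), the latter past the threshold under 7 of 16 alternatives. The knockdowns differed from each other by -0.56 ± 0.12 (adjusted p = 0.00768, limma), and this call held under all 16 alternatives.

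GSK3B, the kinase of the complex, was lower under isoform knockdown. Its probe read 8.59 and 8.55 in the controls, 8.50, 8.68 and 8.65 under WT knockdown and 7.86, 8.00 and 7.85 under isoform knockdown. The WT knockdown arrays surrounded the controls, and every isoform array lay well below both. GSK3B fell by 0.66 ± 0.10 under isoform knockdown, to 63.1% of control (adjusted p = 0.000813, limma), and its difference from control under WT knockdown was 0.04 ± 0.10 (adjusted p = 0.739, limma), or -0.28 with median scaling. The difference between the knockdowns was -0.71 ± 0.09 (adjusted p = 0.000379, limma). The isoform fall and the difference between the knockdowns held under all 16 alternatives. APC, the large scaffold that is often mutated in colorectal cancer, was detected on 0 of 8 arrays, with signals from 4.32 to 4.58, and was not tested.

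CTNNB1 has 7 probes on the array, and 2 of them were detected on every array. Probe ILMN_1746396 read 9.58 and 9.56 in the controls, 9.23, 9.22 and 9.35 under WT knockdown and 9.18, 9.08 and 9.28 under isoform knockdown. All knockdown arrays lay below the controls, and the knockdowns overlapped. With this probe CTNNB1 fell by 0.30 ± 0.10 under WT knockdown (adjusted p = 0.0248, limma) and by 0.39 ± 0.10 under isoform knockdown (adjusted p = 0.0111, limma). The knockdowns differed by -0.08 ± 0.09 (adjusted p = 0.502, limma). With either control left out both calls were lost, with adjusted p-values up to 0.108 under WT knockdown and 0.0665 under isoform knockdown, and the WT call was lost under 5 of 16 alternatives in all.

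Probe ILMN_1757350 gave the same directions against control. It read 9.66 and 9.37 in the controls, 9.01, 8.98 and 9.21 under WT knockdown and 9.05, 9.15 and 8.93 under isoform knockdown, again with all knockdown arrays below the controls. The falls were 0.45 ± 0.12 (adjusted p = 0.0125, limma) and 0.47 ± 0.12 (adjusted p = 0.0139, limma), to 73.1% and 72.1% of control, and each was lost without control 1 (adjusted p = 0.126 and 0.130). Between the knockdowns the difference was -0.02 ± 0.11, or 0.03 with median scaling (adjusted p = 0.909 in the main setting, limma).

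The other CTNNB1 probes were near background. ILMN_1786903 was detected on 0 of 2 control arrays, 1 of 3 WT knockdown arrays and 2 of 3 isoform arrays, with signals of 4.49 and 4.43, then 4.68, 5.11 and 4.63, then 4.67, 4.96 and 4.95. Its differences from control were 0.34 ± 0.16 under WT knockdown and 0.40 ± 0.16 under isoform knockdown. They were opposite in sign to the bright probes and did not pass the threshold. The isoform difference passed it under 5 of 15 alternatives and the WT difference under 2. The probe entered the test only through knockdown arrays, so positive differences were built into its test and do not show a rise. The remaining 4 probes were each detected on at most 2 of 8 arrays and were not tested. Which CTNNB1 transcripts each probe reads is not given in the files.

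**Figure D2:**
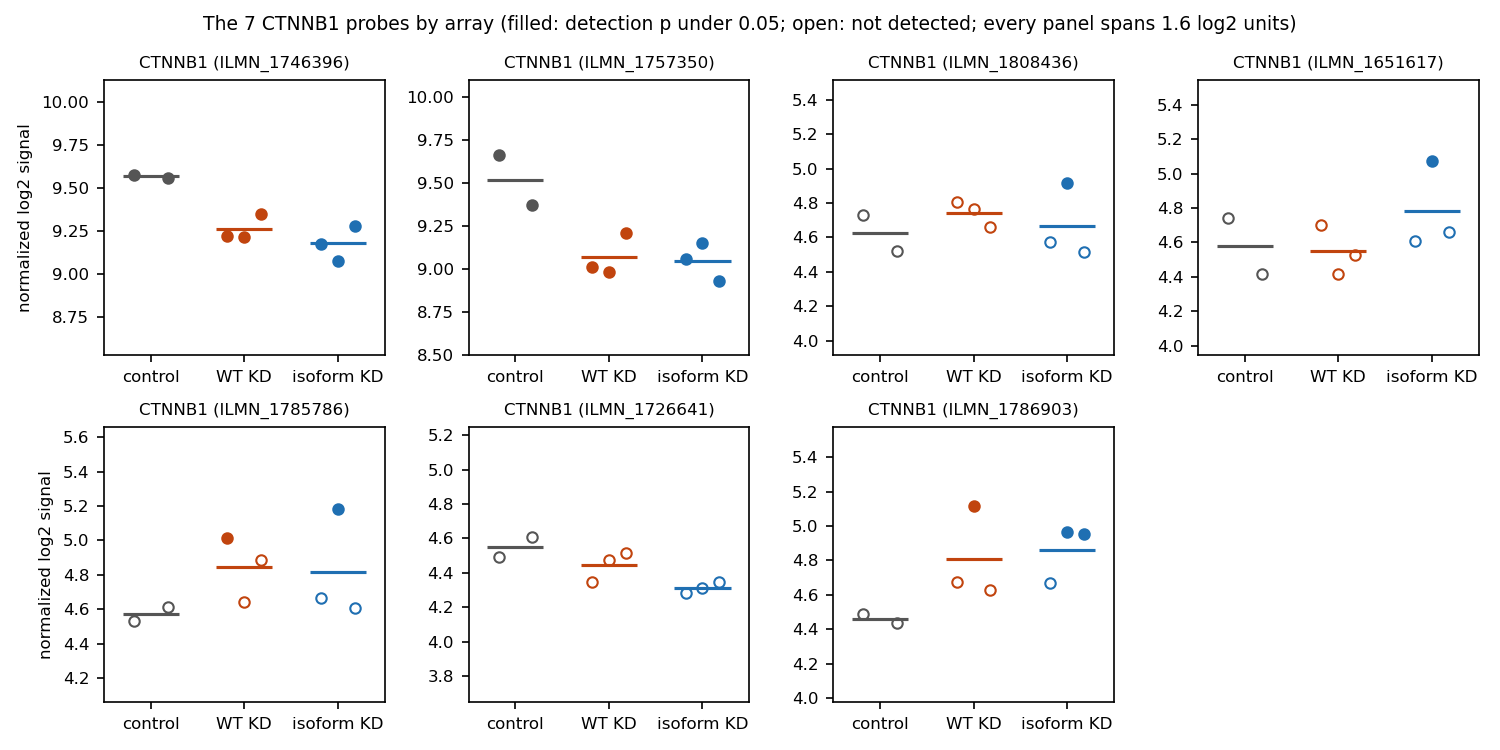
Normalized log2 signal (y axis) of the 7 CTNNB1 probes on the 8 arrays; filled points are arrays with a detection p-value under 0.05, open points are not, and bars are group means. The 2 probes detected on all 8 arrays show the controls above all knockdown arrays, and the other 5 stay near background, with 5.18 as their highest signal.

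TCF7L2 and LEF1 are DNA-binding partners of beta-catenin. TCF7L2 read 6.55 and 6.46 in the controls, 5.65, 5.75 and 5.40 under WT knockdown and 5.84, 6.20 and 5.93 under isoform knockdown, with no overlap between any 2 groups. It fell by 0.91 ± 0.14 under WT knockdown, to 53.3% of control (adjusted p = 0.000511, limma), and by 0.52 ± 0.14 under isoform knockdown, to 69.9% (adjusted p = 0.0156, limma). The first of these held under all 16 alternatives, and the second was lost when either control was left out (adjusted p up to 0.0956). The isoform knockdown lay 0.39 ± 0.12 above the WT knockdown (adjusted p = 0.0369, limma), a call that was lost under 7 of 16 alternatives.

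LEF1 was near the detection limit. Its tested probe read 5.49 and 5.52 in the controls, both detected, 5.01, 5.08 and 4.67 under WT knockdown, where 2 of 3 arrays were detected, and 4.84, 5.10 and 4.88 under isoform knockdown, where 1 of 3 was. The knockdowns overlapped, and all their arrays lay below the controls. LEF1 fell by 0.58 ± 0.14 under WT knockdown (adjusted p = 0.00567, limma) and by 0.56 ± 0.14 under isoform knockdown (adjusted p = 0.00965, limma; 0.0573 without control 3). The knockdowns differed by 0.02 ± 0.12 (adjusted p = 0.923, limma). A further LEF1 probe was detected on 1 control array and on no other, and was not tested.

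CCND1, a well known target of the pathway that many other signals also drive, was the brightest core probe. It read 12.83 and 12.70 in the controls, 12.08, 12.06 and 11.94 under WT knockdown and 12.09, 12.02 and 12.07 under isoform knockdown. All knockdown arrays lay well below the controls, and the 2 knockdowns overlapped. CCND1 fell by 0.74 ± 0.09 under WT knockdown, to 59.7% of control (adjusted p = 0.000152, limma), and by 0.71 ± 0.09 under isoform knockdown, to 61.1% (adjusted p = 0.000421, limma), under all 16 alternatives. The knockdowns differed by 0.03 ± 0.08 (adjusted p = 0.795, limma).

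**Figure D3:**
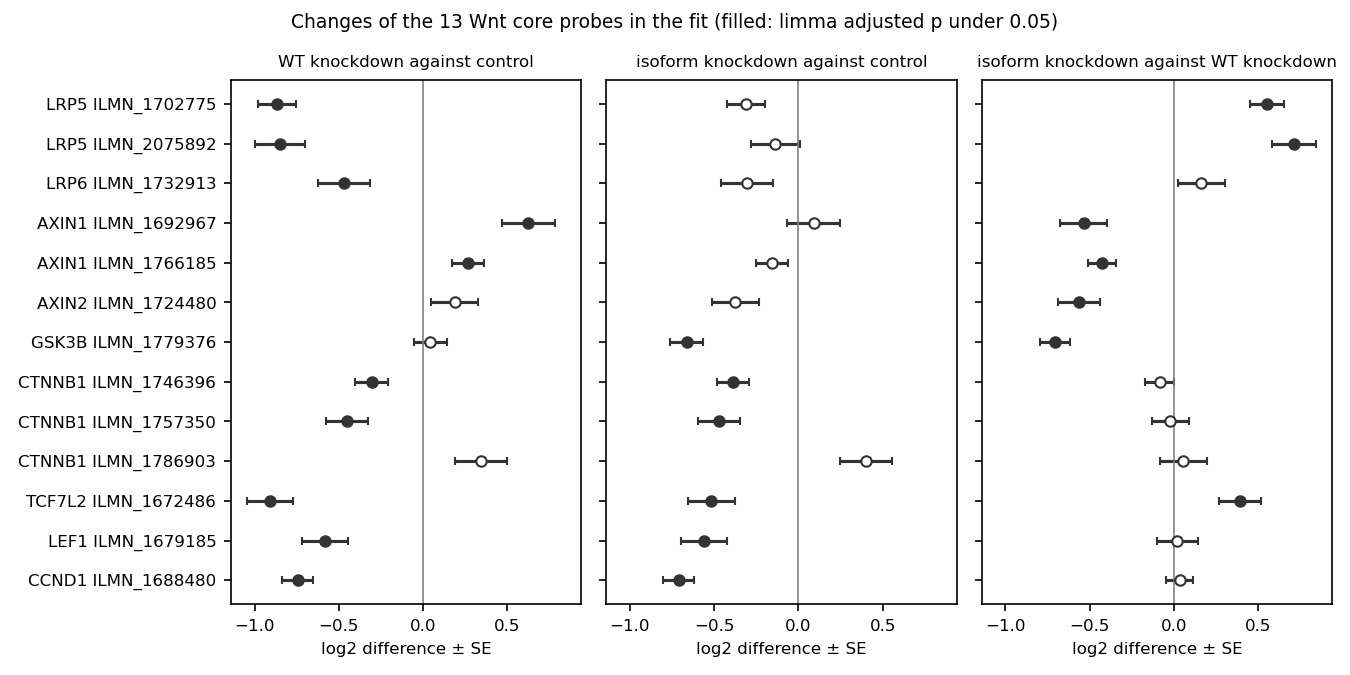
Difference in log2 signal ± SE (x axis) of each of the 13 tested core probes (rows) in the 3 comparisons (panels); filled points passed a limma adjusted p of 0.05. CCND1, TCF7L2, LEF1, LRP5, LRP6 and the 2 bright CTNNB1 probes lie left of 0 in both comparisons with control. LRP5, AXIN1, AXIN2, GSK3B and TCF7L2 carry the filled points of the comparison between knockdowns.

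Group ranges that did not overlap were common on these arrays, and the core probes are to be read against that. Of the 13 core probes, 12 did not overlap between WT knockdown and control, against 67.8% of all probes, 11 between isoform knockdown and control, against 62.6%, and 7 between the knockdowns, against 45.4%. By gene, with the brightest probe of each, 1 of 9 core genes was higher and 6 lower under WT knockdown (56.3% of all genes called, 26.6% higher and 29.7% lower), 0 higher and 5 lower under isoform knockdown (44.0% called, 19.9% higher and 24.1% lower), and 2 higher and 3 lower under isoform knockdown than under WT knockdown (37.8% called).

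Beyond the core, 127 other genes of the pathway were listed by role, also with earlier results of these data known. Of these, 123 had a probe and 78 were bright enough to test. In the WT knockdown 17 of the 78 were higher and 33 lower, under isoform knockdown 11 were higher and 27 lower, and 22 were higher and 13 lower under isoform knockdown than under WT knockdown. The shares called were 64.1%, 48.7% and 44.9%, next to 56.3%, 44.0% and 37.8% of all 12239 genes. Their median changes were -0.19, -0.15 and 0.09, next to -0.02, -0.03 and 0.01 for all genes. The split of directions depended on the scaling: with median scaling, which moved the median of all probes to -0.19, -0.14 and 0.08, 8 were higher and 40 lower, 5 higher and 31 lower, and 16 higher and 4 lower.

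Among the ligands and their secretion factors, 8 of 25 listed genes were tested; 1 was higher and 2 lower under WT knockdown, and 2 were higher and 2 lower under isoform knockdown. Thus 3 and 4 of the 8 ligand genes were called, next to 56.3% and 44.0% of all genes. WNT7B, not detected on 1 WT knockdown array, fell by 1.04 ± 0.19 under WT knockdown (adjusted p = 0.00131, limma) and by 0.86 ± 0.19 under isoform knockdown (adjusted p = 0.00582, limma; 0.0622 without control 1). WNT5B, a ligand mostly linked to signalling without beta-catenin, fell by 0.25 ± 0.09 and 0.33 ± 0.09 (adjusted p = 0.0426 and 0.0183, limma), the first a call that was lost under 8 of 16 alternatives and the second when either control was left out (adjusted p up to 0.105). WNT10B read 5.60 and 4.60 in the controls, of which 1 was detected, so that the controls lay on either side of the WT knockdown arrays. It rose by 0.94 ± 0.25 under isoform knockdown (adjusted p = 0.0149, limma), a difference that was 0.44 without control 3 (adjusted p = 0.102) and 1.45 without control 1. The WT knockdown differed from control by 0.13 ± 0.25 (adjusted p = 0.685, limma). The knockdowns differed by 0.81 ± 0.22 (adjusted p = 0.021, limma), a call that was lost under 4 of 15 alternatives. WLS, the carrier that brings Wnt proteins to the cell surface, was 0.39 ± 0.09 higher under isoform knockdown than under WT knockdown (adjusted p = 0.00756, limma). RSPO2, a secreted amplifier of the pathway and counted among the higher genes, was detected on 0 control arrays and on all 6 knockdown arrays. It was at least 1.32-fold higher under WT knockdown and at least 1.45-fold higher under isoform knockdown. RSPO2 entered the test only through the groups where it is high, so a rise was built into its test and no p-value is given. Its WT call was also lost with either control left out, and its isoform call without control 3.

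Of the 12 tested receptors, 1 was higher and 5 lower under WT knockdown, and 0 were higher and 4 lower under isoform knockdown. Between the knockdowns 3 were higher and 2 lower under isoform knockdown. In all 6, 4 and 5 of the 12 receptors were called, next to 56.3%, 44.0% and 37.8% of all genes. FZD4, a Frizzled receptor, read 6.20 and 5.91 in the controls, 7.35, 7.19 and 7.10 under WT knockdown and 6.48, 6.21 and 6.15 under isoform knockdown. It rose by 1.16 ± 0.14 under WT knockdown (adjusted p = 0.00011, limma), and the isoform knockdown lay below the WT knockdown by -0.94 ± 0.12 (adjusted p = 0.000477, limma). FZD6, another Frizzled, fell by 0.68 ± 0.10 under WT knockdown (adjusted p = 0.000466, limma), with the isoform knockdown 0.61 ± 0.09 above it (adjusted p = 0.000969, limma). ROR1, a Wnt-binding receptor with a kinase domain, fell by 1.15 ± 0.11 and 0.39 ± 0.11 (adjusted p = 2.88e-05 and 0.0166, limma). FZD1 fell by 0.72 ± 0.15 and 0.60 ± 0.15, and RYK by 0.52 ± 0.09 and 0.46 ± 0.09, with limma adjusted p-values of at most 0.011. The isoform calls of ROR1 and FZD1 were lost when either control was left out (adjusted p up to 0.106 and 0.0645).

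Of the 15 tested cytoplasmic transducers, 4 were higher and 5 lower under WT knockdown and 1 higher and 2 lower under isoform knockdown. The shares called were 60.0% and 20.0%, next to 56.3% and 44.0% of all genes. With median scaling the counts were 0 higher and 8 lower, and 1 higher and 4 lower. Between the knockdowns 6 transducers were higher and 3 lower under isoform knockdown, with 60.0% called next to 37.8% of all genes. That comparison gave 4 higher and 0 lower with median scaling. CSNK1G2, a casein kinase of the family that phosphorylates the coreceptors, fell by 0.89 ± 0.11 and 0.79 ± 0.11 (adjusted p = 0.000121 and 0.00047, limma). BTRC and FBXW11 encode the ubiquitin ligase subunits that recognise phosphorylated beta-catenin. BTRC fell by 0.94 ± 0.16 under WT knockdown (adjusted p = 0.00104, limma) and differed by -0.40 ± 0.16 under isoform knockdown (adjusted p = 0.0735, limma), and FBXW11 fell by 0.64 ± 0.09 and 0.38 ± 0.09 (adjusted p = 0.000383 and 0.0101, limma), the second call lost when either control was left out (adjusted p up to 0.0587). DVL2, a Dishevelled protein that relays the signal from Frizzled, rose by 0.73 ± 0.09 under isoform knockdown (adjusted p = 0.000408, limma) and by 0.33 ± 0.09 under WT knockdown (adjusted p = 0.0153, limma; 0.897 with median scaling and 0.11 without control 1). FRAT2, which binds GSK3 and keeps it from the complex, was lower under isoform knockdown than under WT knockdown by -0.47 ± 0.08 (adjusted p = 0.00222, limma), as was PPP2CA, a phosphatase catalytic subunit, by -0.45 ± 0.10 (adjusted p = 0.00735, limma). With median scaling neither difference passed (adjusted p = 0.0654 for FRAT2 and 0.12 for PPP2CA).

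Of the 14 tested nuclear cofactors, 10 passed the test in each knockdown, with 3 higher and 7 lower under WT knockdown and 2 higher and 8 lower under isoform knockdown. The share called was 71.4% in each, next to 56.3% and 44.0% of all genes, and with median scaling the counts were 2 higher and 7 lower, and 0 higher and 8 lower. CDC73 is among the lower genes of both counts, though it was detected on the 2 control arrays alone and so entered the test only through the group where it is high. CTNNBIP1, which binds beta-catenin and blocks its pairing with TCF, read 7.07 and 7.26 in the controls, 5.20, 5.68 and 5.48 under WT knockdown and 6.41, 6.27 and 6.41 under isoform knockdown. It fell by 1.71 ± 0.14 (adjusted p = 1.41e-05, limma) and by 0.80 ± 0.14 (adjusted p = 0.00187, limma), and the knockdowns differed by 0.91 ± 0.12 (adjusted p = 0.000625, limma). EP300, an acetyltransferase and coactivator, rose by 1.12 ± 0.09 under WT knockdown (adjusted p = 1.64e-05, limma) and by 0.36 ± 0.09 under isoform knockdown (adjusted p = 0.0137, limma; 0.522 with median scaling and up to 0.0896 with either control left out). CHD8, a chromatin remodeller that binds beta-catenin, rose by 0.93 ± 0.09 and 0.63 ± 0.09 (adjusted p = 3.74e-05 and 0.000713, limma), and the second value was 0.36 with median scaling (adjusted p = 0.135). CTBP1, a corepressor, fell by 0.65 ± 0.10 and 0.86 ± 0.10 (adjusted p = 0.000529 and 0.000236, limma). TLE1, a Groucho corepressor, rose by 0.49 ± 0.10 under WT knockdown (adjusted p = 0.00342, limma; 0.524 with median scaling).

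Of the 8 tested extracellular and membrane inhibitors, 1 was higher and 2 lower under WT knockdown and 0 higher and 2 lower under isoform knockdown. Against 56.3% and 44.0% of all genes, 3 and 2 of the 8 inhibitors were called. FRZB, a secreted Frizzled-related protein that binds Wnt, read 5.01 and 4.64 in the controls, of which 1 was detected. It was 1.19 ± 0.14 higher under WT knockdown than in control (adjusted p = 0.000125, limma) and lay below that level by -0.91 ± 0.13 under isoform knockdown (adjusted p = 0.000706, limma). The first difference rests on a control level at background and ranged from 0.51 to 1.38 over 15 alternatives. KREMEN1, a receptor for the DKK inhibitors, fell by 0.77 ± 0.17 and 0.48 ± 0.17 (adjusted p = 0.00422 and 0.0494, limma), and the second call was lost under 9 of 15 alternatives; it was detected on 1 of 3 WT knockdown arrays and 2 of 3 isoform knockdown arrays. DKK3, of the DKK family and counted among the lower genes, was detected on the 2 control arrays alone, at 5.17 and 5.15. It entered the test only through the group where it is high, with the averaged control column counted, so that a fall was built into its test and is not given here. SOST, the gene of the LRP-binding inhibitor sclerostin, differed by 0.12 ± 0.15 and -0.20 ± 0.15 (adjusted p = 0.523 and 0.314, limma).

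Of the 15 other tested target genes, 6 were higher and 7 lower under WT knockdown and 5 higher and 5 lower under isoform knockdown. The shares called were 86.7% and 66.7%, next to 56.3% and 44.0% of all genes. With median scaling the counts were 2 higher and 8 lower, and 2 higher and 6 lower. MYC read 10.99 and 10.99 in the controls, 11.34, 11.34 and 11.43 under WT knockdown and 10.93, 11.06 and 11.03 under isoform knockdown. It rose by 0.38 ± 0.09 under WT knockdown (adjusted p = 0.00509, limma), but not with median scaling (adjusted p = 0.932), and differed by 0.02 ± 0.09 under isoform knockdown (adjusted p = 0.863, limma). BIRC5, an inhibitor of apoptosis, CD44, an adhesion receptor that is also 1 of the line's markers, and MET, a growth factor receptor, fell by 0.93 ± 0.09, 0.80 ± 0.08 and 0.83 ± 0.09 under WT knockdown and by 0.49 ± 0.09, 0.56 ± 0.08 and 0.61 ± 0.09 under isoform knockdown (limma adjusted p at most 0.00322). ID2, an inhibitor of differentiation factors, read 4.63 and 4.97 in the controls, of which 1 was detected, and lay between 6.26 and 7.23 on all 6 knockdown arrays. Its mean was 1.71 ± 0.15 and 2.26 ± 0.15 above control, and it is counted among the higher genes. These sizes rest on a control level at background and went down to 0.80 and 1.15 without background correction. ID2 could not have entered the test without knockdown arrays, where it is high, so a rise was built into its test and no p-value is given. FGF18, a growth factor counted among the higher genes, was not detected in the controls. It was at least 5.62-fold higher under WT knockdown and at least 1.06-fold higher under isoform knockdown. FGF18 entered the test only through knockdown arrays, so a rise against control was built into its test and no p-value is given.

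**Figure D4:**
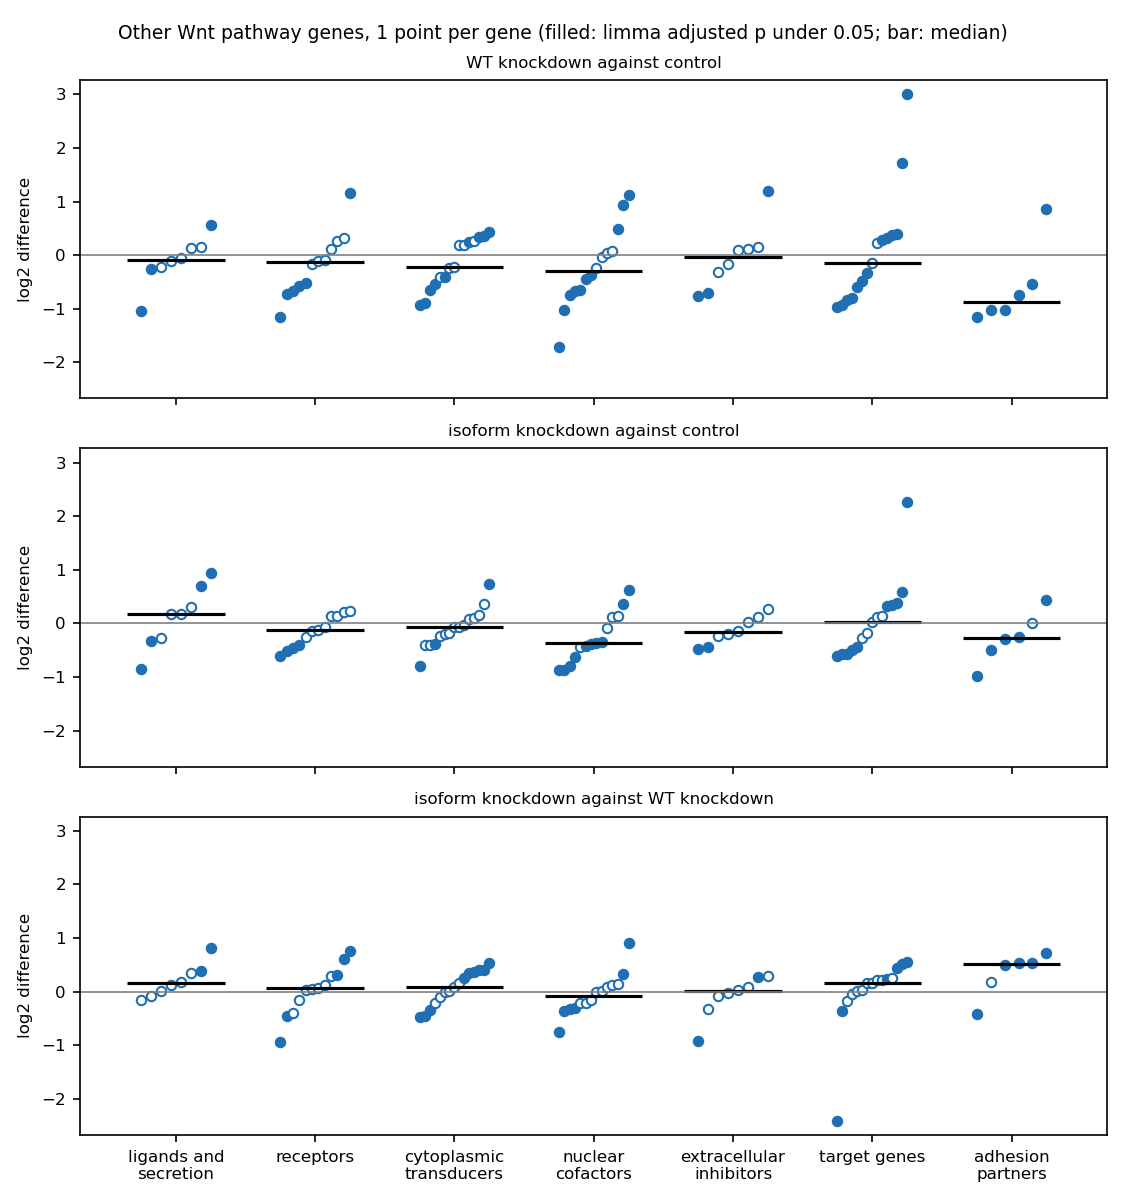
Difference in log2 signal (y axis) of the 78 other tested Wnt pathway genes, grouped by role along the x axis and sorted within each role, in the 3 comparisons (panels); each point is 1 gene, filled where the limma adjusted p was under 0.05, and bars are medians. The adhesion partners stand lowest under WT knockdown with a median of -0.88. FGF18 lies at 3.00 under WT knockdown and at -2.40 in the comparison between the knockdowns. Both values depend on a signal near background, in the controls for the first and under isoform knockdown for the second.

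By a fixed measure of likeness, the root mean square difference of mean-centred log2 signal over the 8 arrays among 9984 other genes detected on all of them, the genes nearest to CTNNB1 were DDX59 at 0.0268, AP2S1 at 0.0394 and MAP3K6 at 0.0416. The nearest to CCND1 were PPIL1 at 0.0466, LPIN1 at 0.0467 and RRP36 at 0.0483. RRP36 changed by -0.78 and -0.76 against control in the WT and isoform knockdowns, and DDX59 by -0.28 and -0.37. These distances are descriptions over arrays that share the same groups.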

How the data were processed

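Per the file headers, 1 deposited table gives each probe's average intensity on each array beside its detection p-value, and its values show no normalization. The authors' second deposited table holds log2 values. Per the submitters' processing notes R 3.1.0 was used, in a role not stated; which scanner, software and genome build were used is not given in the sources used here. Control replicate 2 equalled the mean of controls 1 and 3 (signal tolerance 1e-06, detection p-value tolerance 1e-05) and was left out of the 9 arrays, so the fit used 8. In the signal table the knockdown rows stood in another order than their probe IDs: their rank correlation with the authors' log2 values was between -0.00219 and 0.000506, against 1 for controls. Each of the 47231 rows matched exactly 1 probe by its ranks on the 6 knockdown arrays and was put back there, so the probe identity of knockdown values rests on the authors' log2 table. The different row order also means that separate handling of controls and knockdowns cannot be told apart from the groups.

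Signals were background-corrected with normexp from detection p-values (offset 16), quantile normalized and put on a log2 scale by neqc of limma 3.58.1 (R 4.3.3). The test took probes detected on 3 or more of the 9 deposited columns, the averaged control among them, so that 380 tested probes, 0 of them core and 2 of other Wnt pathway genes, were detected on fewer than 3 of the 8 arrays used. It used lmFit, contrasts and eBayes (degrees of freedom 5 residual, 4.33 prior), and p-values were adjusted by Benjamini-Hochberg per comparison. The fit was tested on simulated data. The number of arrays and signal over background limit the precision; the replicate SD of the median probe was 0.0851 (controls), 0.124 (WT knockdown) and 0.117 (isoform knockdown).

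In the platform annotation 1 symbol is given for 30113 probes, several for 8 and none for 17110; symbols were updated through the RefSeq gene table of GRCh38.p14. A gene was represented by its brightest tested probe. For a probe that no array of 1 group detected, an "at least" fold is given: the bright group's mean is set against the mean, over the dim arrays, of the higher of the lowest detected signal and the probe's own. Named genes are the core genes, MTDH, IFIT1 to IFIT3, up to 3 genes per list and comparison with the smallest adjusted p, and the 3 nearest in pattern to CTNNB1 and to CCND1. The members and lists were chosen with earlier results of these data known. Alternatives tried were other background correction, scaling, filters, variance model and probe summary, the authors' log2 table, control replicate 2 kept, a replicate block, and each array left out.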

Additional observations from a re-analysis of the deposited data

Results flagged for a closer look

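Of the CTNNB1 probes left out of the test, 3 were detected on knockdown arrays and on 0 control arrays. They are listed because of that pattern, so the pattern does not show a rise. The share of all untested probes with such a pattern was not computed. ILMN_1651617 was detected on 1 array, isoform knockdown replicate 2, at a log2 signal of 5.07 against 4.74 and 4.41 in the controls. ILMN_1808436 was detected on 1 array, again isoform knockdown replicate 2, at 4.92 against 4.73 and 4.52. ILMN_1785786 was detected on 2 arrays, WT knockdown replicate 1 at 5.01 and isoform knockdown replicate 2 at 5.18, against 4.53 and 4.61. Isoform knockdown replicate 2 was the highest array for all 3 probes.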

How the results depend on the processing

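Over the 13 core probes and 3 comparisons, 23 of 39 differences passed the threshold. Of these, 11 kept their direction and their call under all alternatives that could be computed for them, up to 16 each, and 1 reversed. Of the 16 differences that did not pass, 5 passed under at least 1 alternative. Of 96 called changes of the named genes outside the core, MTDH and IFIT1 to IFIT3 included, 63 kept direction and call throughout and 1 reversed; 18 were lost without control 1, 17 without control 3 and 16 with median scaling. Without background correction 4 were lost and 33 were smaller by over 1.5 times, and with the authors' log2 values 27 were smaller by that much and 0 were lost. With median scaling in place of quantile normalization, the bright AXIN1 probe in the WT knockdown turned to -0.042, AXIN2 to -0.0061, GSK3B to -0.28 and FRAT2 to -0.075, and the difference of CTNNB1 probe ILMN_1757350 between the knockdowns to 0.027. That scaling also lowered the calls between the knockdowns from 7399 to 4920 over all probes and from 35 to 20 over the other Wnt pathway genes. It moved the split over all probes from 5500 higher and 6076 lower to 2849 and 7765 in the WT knockdown, from 4285 and 4716 to 2103 and 5753 in the isoform knockdown, and from 3887 and 3512 to 3045 and 1875 between the knockdowns. The authors' log2 table called 9 core probes in the isoform knockdown, where 6 passed in the main setting, and 11 in the WT knockdown, where 10 passed. Over all 22467 probes it called 9736 and 12083, where 9001 and 11576 passed in the main setting.

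With 1 array left out at a time, core probes called ranged from 6 to 10 in the WT knockdown, from 3 to 8 in the isoform knockdown and from 5 to 7 between the knockdowns. The lowest counts of the first and second came with a control left out, where calls over all probes were also fewest. With a knockdown array left out, calls over all probes were 10607 to 11522 in the WT knockdown (main 11576). Between the knockdowns they were 5915 to 6429 with a knockdown array left out (main 7399). Over all probes the isoform knockdown gave 5766 to 9237 calls (main 9001), with 5766 without control 1 and 5916 without control 3, and over the other Wnt pathway genes 19 to 38 (main 38), with 19 and 21. Differences that changed sign in this way had not passed in the main setting: the dim AXIN1 probe in the isoform knockdown (-0.18 to 0.36), the dim LRP5 probe in the isoform knockdown (-0.40 to 0.13, where the lowest, without control 3, passed with adjusted p = 0.0477), and between the knockdowns CCND1 (-0.010 to 0.061), CTNNB1 probes ILMN_1757350 (-0.074 to 0.049) and ILMN_1786903 (-0.033 to 0.21) and LEF1 (-0.10 to 0.10). The cause of these shifts was not tested. Leaving out 1 control leaves a lone control that is assumed to vary like the other groups.

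Deviations of same-numbered arrays from their group means correlated between -0.03 and 0.06 over probes, so the numbers are not taken to pair the samples. With a replicate block the counts were 10929, 7970 and 6836 over all probes for the WT knockdown, the isoform knockdown and the difference between them, 8, 6 and 7 over the core probes and 45, 34 and 32 over the other Wnt pathway genes. Dim probes limit the result: APC and 6 of 19 core probes in all could not be tested.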

Other observations

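Beta-catenin also works at cell junctions, where it links cadherins to alpha-catenin, and the genes of that machinery were measured too. Of 9 listed adhesion partners 6 were tested. In the WT knockdown 1 was higher and 5 were lower, under isoform knockdown 1 was higher and 4 lower, and 4 were higher and 1 lower under isoform knockdown than under WT knockdown, with median changes of -0.88, -0.27 and 0.51. The shares called were 100%, 83.3% and 83.3% of these few genes, next to 56.3%, 44.0% and 37.8% of all genes, of which 29.7% were lower under WT knockdown and 24.1% under isoform knockdown. With median scaling the counts under isoform knockdown were 0 higher and 4 lower, and between the knockdowns 4 higher and 0 lower. CTNNA1, which encodes alpha-catenin, read 12.17 and 12.28 in the controls, 11.22, 11.24 and 11.17 under WT knockdown and 11.83, 12.01 and 11.96 under isoform knockdown. The groups did not overlap: it fell by 1.02 ± 0.09 (adjusted p = 2.88e-05, limma) and by 0.29 ± 0.09 (adjusted p = 0.0328, limma), and the knockdowns differed by 0.72 ± 0.08 (adjusted p = 0.000273, limma). The isoform fall of CTNNA1 was lost under 4 of 16 alternatives, among them leaving out control 1 or control 3 (adjusted p = 0.0685 and 0.191). JUP, the gene of gamma-catenin, a close relative of beta-catenin, fell by 0.74 ± 0.09 and 0.25 ± 0.09 (adjusted p = 0.00012 and 0.0463, limma), the second a call that was lost under 8 of 16 alternatives. CTNNAL1 fell by 1.03 ± 0.12 and 0.50 ± 0.12 (adjusted p = 9.81e-05 and 0.00882, limma; 0.0799 for the second without control 1).

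CDH2, the N-cadherin of mesenchymal cells, fell by 1.15 ± 0.13 and 0.98 ± 0.13 (adjusted p = 0.000107 and 0.000571, limma), with a difference of 0.18 ± 0.12 between the knockdowns (adjusted p = 0.299, limma). CDH11, another cadherin of mesenchymal cells, fell by 0.53 ± 0.11 under WT knockdown (adjusted p = 0.00253, limma). It was 0.54 ± 0.10 higher under isoform knockdown than under WT knockdown (adjusted p = 0.00253 for that difference, limma). CTNND1, which encodes p120 catenin, rose by 0.86 ± 0.12 and 0.44 ± 0.12 (adjusted p = 0.000317 and 0.0179, limma), and the second call was lost under 5 of 16 alternatives. CDH1, the E-cadherin gene, was detected on 0 of 8 arrays.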
